A study of Mus musculus with 18 samples.

Results

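Gene expression was compared between mouse CD4 T cells cultured in the treatments labelled Tfh_1 and Tfh_A (Tfh1 and TfhA below), in the libraries whose genotype label is CD4Cre- Maf fl/fl. The comparison used every library with that label and either treatment, 3 of Tfh1 and 3 of TfhA, which are 6 of the 18 libraries of the series, and all genes that passed a filter on low counts. Naive CD4 T cells were activated with plate-bound antibodies against CD3 and CD28 for 3.5 days, sorted by flow cytometry, and read as 3′ mRNA libraries made from 50 ng of RNA, per the labels' protocols. Maf fl/fl means that both copies of Maf carry loxP sites, and CD4Cre is a Cre recombinase driven by Cd4 regulatory sequence, which deletes such loci in T cells. By that label CD4Cre- cells have the floxed gene and lack the transgene, which their Maf RNA, given below, goes against, and the other 9 libraries are labelled CD4Cre+ Maf fl/fl. The series also holds another treatment, Tfh_5 (Tfh5). The cytokines and antibodies in the 3 treatments are not given in these sources, nor is the sorting gate. The libraries of both groups carry the replicate numbers 2, 4 and 5, and what a number stands for is not given, so p-values measure the spread between these libraries, which may be technical.

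As background, the title of the series places TGF-β and the transcription factor c-Maf, the product of Maf, at the choice between T follicular helper (Tfh) and Th17 fates. TGF-β is made as a latent precursor, is cut by furin and released by integrins, and signals through the kinase receptors TGFBR1 and TGFBR2 to the transcription factors SMAD2, SMAD3 and SMAD4. With IL-6 it drives activated CD4 T cells towards the Th17 fate, whose cytokines are IL-17A and IL-17F. Tfh cells, which help B cells in germinal centres, are known for BCL6, CXCR5, ICOS, PD-1 and IL-21. TGF-β is also known to hold down T-bet and the Th1 program.

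The 6 libraries held 6424874 to 7401070 counts each. Genes above 0 numbered 11928 to 12588 in TfhA and 11325 to 11809 in Tfh1, so every Tfh1 library held fewer of them. Across genes, Spearman coefficients between pairs of libraries within a group were 0.874 to 0.926, and those between the groups 0.852 to 0.886. The identifiers 100861531 and 19791 have no entry in the RefSeq gene names used here. Together they took 33.74%, 19.70% and 21.88% of the counts in TfhA replicates 2, 4 and 5 and 40.03%, 41.15% and 33.07% in Tfh1 replicates 2, 4 and 5. Values per library below are in this order of replicates, 2, 4 and 5, in CPM, the counts per 1000000 of the TMM-scaled library total. Deposited counts were rounded first, so a CPM of 0 stands for at most 0.5 counts. Maf RNA went against the genotype labels. In TfhA the libraries labelled Cre-negative held 0.27, 0 and 0 CPM of Maf and in Tfh1 0, 0 and 2.03 CPM, whereas those labelled Cre-positive (replicates 1, 3 and 6) held 22.8, 8.07 and 5.03 CPM and 207, 260.1 and 196 CPM. Every Cre-positive library was above every Cre-negative one, so each genotype below is named only as its label, and whether the 2 labels are exchanged was not tested. How 3′ tags relate to the floxed part of Maf is not given in these sources. All 14 markers of CD4 T cells were tested, and their summed level was 2518 to 2539 CPM in TfhA and 3184 to 3579.7 CPM in Tfh1.

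Of 11735 genes tested, 262 passed an adjusted p of 0.05 in edgeR's quasi-likelihood test of Tfh1 minus TfhA, which is 2.23%, and are called below. In Tfh1 176 were higher (1.50%) and 86 were lower (0.733%). At least 3-fold changes made up 64 of the higher and 42 of the lower calls. The 3 libraries of one group lay outside the range of the other for 261 of the 262, and for 22.6% of all genes tested. The median log2 fold change of all genes was -0.04. This fit took its estimate of spread from all 18 libraries. A fit of the 6 libraries alone called 566 of 10218 genes (5.54%), 335 higher and 231 lower, with 255 of the 262 among them and 2 not tested there. No call reversed under any alternative, and 105 of the 262 were called in each of the 6 fits that left out 1 library. The count of calls was 129 without TfhA replicate 5, 147 without Tfh1 replicate 4 and 166 without Tfh1 replicate 2. Adjusted p-values of genes are edgeR's throughout, fold changes are log2 values ± SE, and a fold is given as "at least" against a floor of 3 counts over the 3 libraries where a group held 0 counts. In these bulk libraries, fewer cells of a type and less RNA per cell cannot be told apart.

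**Figure D1:**
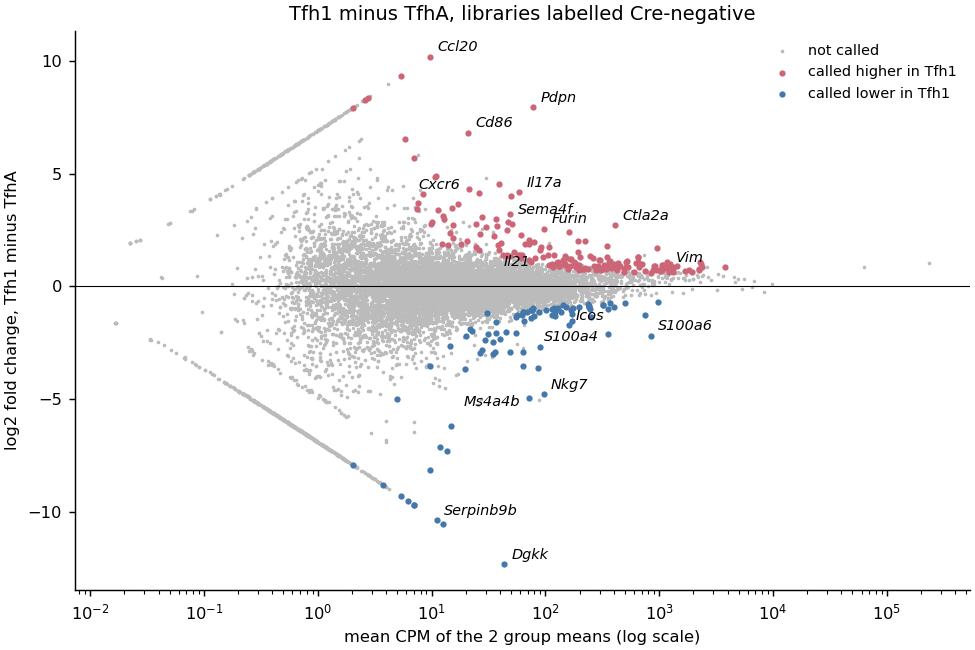
Level and change of the genes tested. The x axis gives the mean of the 2 group means in CPM on a log scale and the y axis the log2 fold change of Tfh1 minus TfhA with the label Cre-negative. The 176 genes called higher are red, the 86 called lower are blue and the rest grey. Fitted values of genes with 0 counts in a group, such as Ccl20 and Dgkk, depend on the prior count of the fit.

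The gene with the smallest adjusted p was Il17a (chr1:20730905-20734496, mm10), the signature cytokine of Th17 cells. It stood at 7.69, 5.62 and 5.29 CPM in TfhA and at 76.9, 108 and 149 CPM in Tfh1. Its log2 fold change was 4.17 ± 0.33 (adjusted p = 9.14e-11). Every Tfh1 library was above every TfhA library, and the groups did not overlap, in either direction, for 22.6% of all genes. Ccl20 (chr1:83116766-83119167), a chemokine that attracts cells with the receptor CCR6, was listed at 0 in all 3 TfhA libraries and at 16, 7.46 and 35.1 CPM in Tfh1, at least 184-fold higher (adjusted p = 3.27e-05). Pdpn (chr4:143267409-143299564), which encodes the membrane glycoprotein podoplanin, rose from 0, 0.205 and 1.5 CPM to 146, 148 and 172 CPM (log2 fold change 7.96 ± 1.05, adjusted p = 0.000998). Ccl20 and Pdpn have the largest and the third-ranked fitted rises among genes of at least 10 CPM. For these 3 genes the 250 bases before the RefSeq start are shown (GRCm38.p6, the full form of mm10, chr1:83116516-83116765, plus strand for Ccl20, chr4:143299565-143299814, minus strand for Pdpn and chr1:20730655-20730904, plus strand for Il17a). They are the windows in which the letters of the motifs given here and below were looked for. The capitals mark matches to the nuclear receptor half-site (AGGTCA, read as TGACCT on the other strand), the AP-1 element (TGANTCA) or the SMAD core (CAGAC, read as GTCTG).
Ccl20: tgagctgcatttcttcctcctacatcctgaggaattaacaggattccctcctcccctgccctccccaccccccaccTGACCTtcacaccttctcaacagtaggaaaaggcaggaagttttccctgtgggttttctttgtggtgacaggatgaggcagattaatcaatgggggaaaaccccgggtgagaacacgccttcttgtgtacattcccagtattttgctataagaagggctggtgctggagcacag
Pdpn: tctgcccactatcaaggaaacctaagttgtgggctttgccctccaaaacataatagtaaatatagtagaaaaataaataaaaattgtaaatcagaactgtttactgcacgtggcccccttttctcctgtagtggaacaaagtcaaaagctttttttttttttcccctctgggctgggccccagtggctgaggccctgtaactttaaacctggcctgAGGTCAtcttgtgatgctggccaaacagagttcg
Il17a: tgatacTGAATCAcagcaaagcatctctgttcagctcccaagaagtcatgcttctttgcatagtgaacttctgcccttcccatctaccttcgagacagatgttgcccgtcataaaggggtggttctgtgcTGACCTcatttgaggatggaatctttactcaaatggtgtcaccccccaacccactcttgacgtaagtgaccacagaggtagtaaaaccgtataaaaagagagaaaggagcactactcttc

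Each of the 3 windows held 1 match to the nuclear receptor letters, and that of Il17a also held 1 match to the AP-1 letters. The window of Cd38, the second largest fitted rise, held 1 SMAD core and neither of the others. In the windows of the 3 genes with the largest falls, Dgkk held 6 SMAD cores, Moxd1 held 2 and Serpinb9b none of the motifs. The 6 of Dgkk lie in copies of the same repeated stretch, so they are not separate matches. Letters were searched on both strands in windows of 250 bases, with TGANTCA and AGGTCA allowed to overlap. The nuclear receptor letters were in 12% of 142 windows of the genes called higher, in 10.8% of 83 windows of those called lower and in 10.8% of 11446 windows of all genes tested. The AP-1 letters were in 13.4%, 8.43% and 4.35%, the SMAD core in 38.7%, 44.6% and 40.5%, and the full palindrome GTCTAGAC in 0.704%, 0% and 0.236%. Windows were found for 106 of the 176 higher and 64 of the 86 lower genes, some genes having several starts, and a match is a run of letters, not a site of binding.

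The other genes with the largest rises include surface proteins, enzymes and a cytokine. Cd38, an enzyme of the cell surface that consumes NAD, was listed at 0 in all TfhA libraries and stood at 20.5, 6.7 and 5 CPM in Tfh1, at least 92.8-fold higher (adjusted p = 0.00558). Cd86, a ligand of CD28 and CTLA-4, was at 0.81, 0.307 and 0 CPM in TfhA and 40.1, 64.4 and 19.1 CPM in Tfh1 (log2 fold change 6.82 ± 0.78, adjusted p = 3.51e-07). Gcnt2, which adds branches to sugar chains, rose from 4.59, 3.78 and 1.4 CPM to 80.9, 69.1 and 77.3 CPM (log2 fold change 4.55 ± 0.50, adjusted p = 1.77e-07). These 3 genes did not overlap between the groups, which the rule that picked the largest rises required. Cd101, an inhibitory receptor of the immunoglobulin family, rose from 1.21, 2.76 and 4.1 CPM to 35.3, 52.2 and 60 CPM (log2 fold change 4.16 ± 0.43, adjusted p = 3.3e-08). Nipal1, a magnesium transporter, had 3.33 counts in TfhA and stood at 19.1, 9.74 and 5.68 CPM in Tfh1 (100.5-fold, counting interval 33.9 to 491, adjusted p = 9e-06). Il10, an anti-inflammatory cytokine, stood at 0.81, 0 and 0 CPM in TfhA and 15.3, 11.1 and 14.6 CPM in Tfh1 (log2 fold change 5.68 ± 1.50, adjusted p = 0.0304). Prr5l, a partner of the kinase complex mTORC2, had Tfh1 libraries at 45.2, 11.4 and 7.3 CPM, with replicate 2 far above the others, against 0.675, 0 and 1.4 CPM in TfhA (log2 fold change 4.91 ± 1.26, adjusted p = 0.0439). The calls of the last 2 were lost when libraries were left out: Il10 without any 1 library other than TfhA replicate 2 (adjusted p = 0.0559 to 0.183), and Prr5l without any 1 of the 6 libraries (adjusted p = 0.0506 to 0.21).

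Among the genes with the smallest adjusted p, Sema4f, a semaphorin of the cell membrane, rose from 4.32, 6.14 and 7.09 CPM to 109.6, 90.7 and 81.6 CPM (log2 fold change 4.0 ± 0.39, adjusted p = 1.42e-08). Prnp, the prion protein, rose from 12.8, 7.87 and 7.89 CPM to 71.6, 103 and 90.7 CPM (log2 fold change 3.22 ± 0.34, adjusted p = 3.37e-08). Both rose to levels outside the TfhA range in every library, which the rule that picked these genes required. AA467197 rose from 70.7, 41.1 and 44 CPM to 245, 283 and 288 CPM (log2 fold change 2.39 ± 0.25, adjusted p = 3.37e-08). Ctla2a, an inhibitor of cysteine proteases, rose from 112, 149 and 62 CPM to 734, 721 and 675 CPM (log2 fold change 2.72 ± 0.26, adjusted p = 3.37e-08). Ctla2a has a close copy, Ctla2b, and its values were not whole in 13 of 18 libraries, so reads may be shared between them.

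Of the genes with the largest falls, 7 were listed at 0 in every Tfh1 library. Dgkk (chrX:6779306-6948363), a diacylglycerol kinase, stood at 66.4, 83.3 and 111 CPM in TfhA and at 0 in all 3 Tfh1 libraries, at least 595-fold lower (adjusted p = 4.9e-09). Serpinb9b, a serine protease inhibitor, stood at 25.8, 24.2 and 17 CPM in TfhA and at 0 in Tfh1, at least 147-fold lower (adjusted p = 0.000626). Fah, an enzyme of tyrosine breakdown, went from 19.3, 11.1 and 6.79 CPM to 0 in all Tfh1 libraries, at least 78.6-fold lower (adjusted p = 0.00614). For all 3, each Tfh1 library was at 0 and each TfhA library was not, and the rule that picked the largest falls required groups without overlap. Il3, a growth factor of blood cells, went from 20, 12.3 and 9.99 CPM to 0, at least 90.3-fold lower (adjusted p = 0.0154). Pou2af1, a coactivator of octamer-binding factors, went from 6.88, 14.6 and 10.6 CPM to 0, at least 73.6-fold lower (adjusted p = 0.00845). Moxd1, a monooxygenase, went from 36.4, 25.8 and 14.2 CPM to 0, at least 163-fold lower (adjusted p = 0.0125), and Dcn, the proteoglycan decorin, which binds TGF-β, from 17.5, 13.1 and 11.8 CPM to 0, at least 92.3-fold lower (adjusted p = 0.0449). These calls rest on few counts, 300 to 664 per gene over the 3 TfhA libraries for the last 4. Leaving out 1 library removed the call for Il3 without any 1 library other than TfhA replicate 4 or TfhA replicate 5 (adjusted p = 0.0665 to 0.0806), Pou2af1 without Tfh1 replicate 4 or TfhA replicate 5 (adjusted p = 0.0514 to 0.0565), Moxd1 without any 1 library other than TfhA replicate 5 (adjusted p = 0.0547 to 0.0881) and Dcn without any 1 of the 6 libraries (adjusted p = 0.104 to 0.172).

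Other falls left a remainder in Tfh1. Ms4a4b, a membrane protein of T cells, fell from 111, 183 and 121 CPM to 7.76, 1.83 and 3.65 CPM (log2 fold change -4.98 ± 0.49, adjusted p = 1.42e-08). Ly6c2, a surface protein of effector and memory T cells, fell from 38.5, 26.9 and 23.3 CPM to 0.165, 0.304 and 0.676 CPM (log2 fold change -6.19 ± 1.16, adjusted p = 0.00111), with values not whole in 16 of 18 libraries and a close copy in Ly6c1. Tagap, a GTPase-activating protein of T cells, fell from 164, 120.2 and 178 CPM to 32.3, 15.1 and 24.3 CPM (log2 fold change -2.69 ± 0.33, adjusted p = 9.07e-07), with values not whole in 15 libraries. All 3 had TfhA libraries above every Tfh1 library, which the rules that picked these genes required. Mndal, a nuclear protein of the interferon-inducible p200 family, had 3.33 counts in Tfh1 against 16.2, 33.2 and 32.3 CPM in TfhA (lower 188-fold, counting interval 64.3 to 916, adjusted p = 0.0037). Msc, a transcriptional repressor of the basic helix-loop-helix family, had 3 counts in Tfh1 against 15.9, 24.2 and 30.6 CPM in TfhA (lower 162-fold, counting interval 55.3 to 789, adjusted p = 0.0211). Ccn4, a secreted matricellular protein, had 1 count in Tfh1 against 17.1, 25.4 and 16 CPM in TfhA (lower 394-fold, counting interval 70.4 to 15591, adjusted p = 0.0086). Calls lost on leaving out a library were those of Msc without any 1 library other than Tfh1 replicate 4 or TfhA replicate 2 (adjusted p = 0.0602 to 0.112) and Ccn4 without Tfh1 replicate 4 or Tfh1 replicate 5 (adjusted p = 0.0522 to 0.0598).

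Th17 genes that passed the test were all higher in Tfh1. Of 23 tested members, 8 were called higher and none lower, against 2.23% of all genes, with a median log2 fold change of 1.22. The fit of the 6 libraries alone called 13 higher and none lower, against 335 and 231 of its 10218 genes. Among the cytokines, Il17a, Ccl20 and Il21 were called. Il21, which acts on B cells and on the T cells that make it and is shared with the Tfh list, rose from 32.9, 60.3 and 37.7 CPM to 164, 101 and 139 CPM (log2 fold change 1.62 ± 0.29, adjusted p = 0.000539). Il17f stood at 0.135, 5.73 and 0.2 CPM in TfhA and 40.9, 36.5 and 98.8 CPM in Tfh1. Its groups did not overlap, like those of 22.6% of all genes. It missed the threshold in the fit of 18 libraries (log2 fold change 4.82 ± 1.20, adjusted p = 0.0592) and passed in that of 6 (adjusted p = 0.0122). Of the 6 fits that left out 1 library, Il17f passed only in that without TfhA replicate 4, its highest TfhA library (adjusted p = 0.002). Il24, a cytokine of the IL-10 family, stood at 48.5, 13.6 and 33 CPM in TfhA and 72, 80.5 and 108 CPM in Tfh1 (log2 fold change 1.46 ± 0.58, adjusted p = 0.251, and 0.0315 with the 6 libraries alone).

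Transcription factors and other Th17 genes moved less uniformly. Ahr, the aryl hydrocarbon receptor, rose from 3.64, 3.27 and 10.3 CPM to 26.2, 30 and 19.2 CPM (log2 fold change 2.12 ± 0.53, adjusted p = 0.0207). Irf4, which binds DNA with AP-1 factors in activated T cells, rose from 194, 171 and 199 CPM to 310.3, 405 and 323 CPM (log2 fold change 0.88 ± 0.23, adjusted p = 0.0281). Stat3, which transmits the IL-6 signal, stood at 359, 199 and 283 CPM and 464, 404 and 521 CPM (log2 fold change 0.72 ± 0.22, adjusted p = 0.0733, and 0.0402 with the 6 libraries alone). Of the 6 fits that left out 1 library, Stat3 passed only in that without TfhA replicate 2, its highest TfhA library (adjusted p = 0.0301). Batf, Rora, Il23r and Ccr6 did not pass, with log2 fold changes of -0.07, 2.19, 0.04 and 0.91 and adjusted p-values of 1, 0.73, 1 and 0.292. The neighbouring genes Tmem176a and Tmem176b, which code for membrane channel proteins, both rose. Tmem176b went from 0, 1.02 and 1.6 CPM to 19.5, 12.9 and 15.5 CPM (log2 fold change 4.11 ± 0.61, adjusted p = 4.02e-05) and Tmem176a from 1.48, 0.716 and 0 CPM to 11.1, 34.2 and 16.6 CPM (log2 fold change 4.85 ± 1.13, adjusted p = 0.03). Their gene models overlap, and whether the counting used strand is not stated here, so reads of the pair are uncertain. Ltb4r1, a receptor for leukotriene B4, rose from 14.3, 8.69 and 2 CPM to 42.1, 87.4 and 68.2 CPM (log2 fold change 2.99 ± 0.64, adjusted p = 0.0125). With 1 library left out, the call was lost for Ahr without any 1 library other than Tfh1 replicate 5 or TfhA replicate 5 (adjusted p = 0.0647 to 0.132), Irf4 without any 1 library other than Tfh1 replicate 2 (adjusted p = 0.0506 to 0.194), Tmem176a without any 1 of the 6 libraries (adjusted p = 0.0522 to 0.151) and Ltb4r1 without Tfh1 replicate 4 or TfhA replicate 4 (adjusted p = 0.0602 to 0.0789).

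The Tfh list held calls in both directions. Of 24 tested members, 2 were called higher (Il21 and Irf4) and 4 lower (Icos, Id3, Cd200 and Pou2af1), against 1.50% and 0.733% of all genes. The median log2 fold change was -0.60. The fit of 6 libraries called 2 higher and 7 lower, against 335 and 231 of its 10218 genes. Among the receptors, Icos, the costimulator that Tfh cells need, fell from 304, 198 and 234 CPM to 47.4, 85.7 and 89.5 CPM (log2 fold change -1.73 ± 0.25, adjusted p = 1.82e-05). Cd200, a ligand with inhibitory function, fell from 66.5, 95.5 and 53.8 CPM to 19, 18.4 and 15.4 CPM (log2 fold change -2.03 ± 0.42, adjusted p = 0.00339). Both genes were lower in every Tfh1 library than in any TfhA library, and 261 of the 262 called genes did not overlap. Of all genes, 22.6% did not. Btla, an inhibitory receptor, stood at 64.5, 102 and 122 CPM in TfhA and 20.8, 19.9 and 8.78 CPM in Tfh1 (log2 fold change -2.55 ± 0.68, adjusted p = 0.0569, and 0.000749 with the 6 libraries alone). Pdcd1, the gene of PD-1, and Cxcr5, the receptor that leads cells to follicles, did not pass. Pdcd1 stood at 22.8, 44.8 and 20.3 CPM and 15.7, 35.6 and 36.2 CPM (log2 fold change -0.01 ± 0.40, adjusted p = 1), and Cxcr5 at 0, 2.66 and 0.2 CPM and 3.63, 0 and 3.78 CPM (log2 fold change 1.35 ± 1.70, adjusted p = 0.936). Of the transcription factors, Id3, an inhibitor of E proteins, fell from 81.9, 69.8 and 114 CPM to 13.2, 19.8 and 29.3 CPM (log2 fold change -2.09 ± 0.42, adjusted p = 0.00253). Tcf7 stood at 0, 1.64 and 2.5 CPM and 0, 1.98 and 0.27 CPM (log2 fold change -0.87 ± 2.17, adjusted p = 0.989). Bcl6 had 0.25 counts in Tfh1 and 0 in TfhA, over 3 libraries each, and its counterpart Prdm1, the gene of BLIMP1, at 0, 0 and 0 CPM in TfhA and 2.97, 0 and 0.135 CPM in Tfh1. Neither was tested. Cd40lg, the ligand through which T cells activate B cells, stood at 22.1, 14.3 and 26.9 CPM and 14.2, 10 and 7.3 CPM (log2 fold change -1.01 ± 0.89, adjusted p = 0.809). When 1 library was left out, the call was lost for Irf4 without any 1 library other than Tfh1 replicate 2 (adjusted p = 0.0506 to 0.194) and Pou2af1 without Tfh1 replicate 4 or TfhA replicate 5 (adjusted p = 0.0514 to 0.0565).

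**Figure D2:**
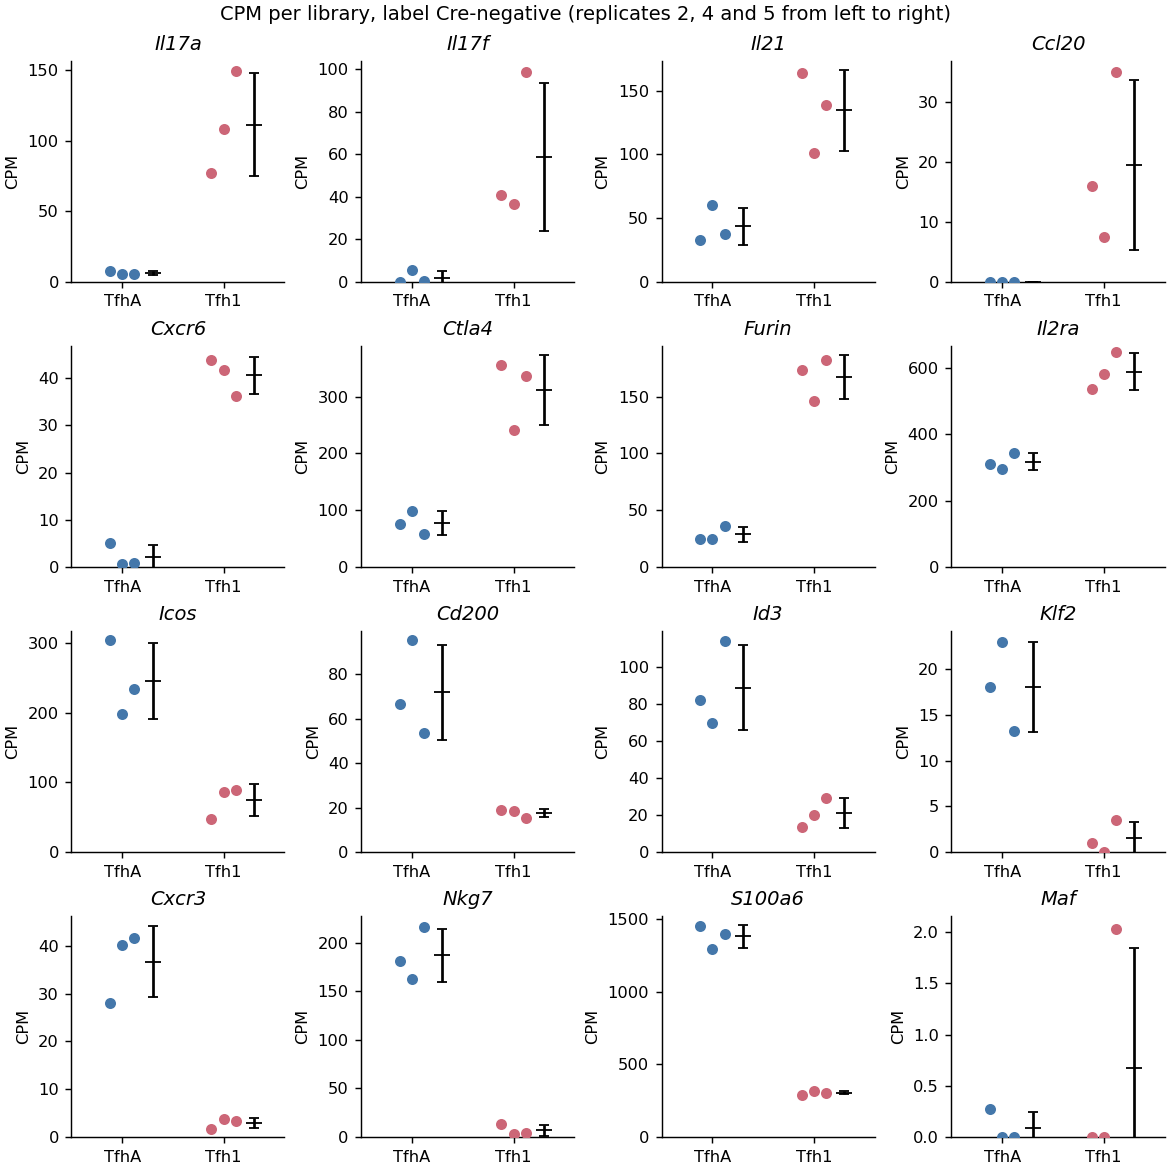
Levels of 16 genes in each of the 6 libraries labelled Cre-negative, in CPM on linear axes that start at 0. Points are replicates 2, 4 and 5 from left to right and bars are the mean ± SD of 3 libraries. Il17a stands at 76.9 CPM or more in every Tfh1 library and at 7.69 CPM or less in TfhA, Icos falls below the TfhA range, and Maf stays at 2.03 CPM or less.

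In the TGF-β pathway 3 of 30 tested genes were called in the fit of 18 libraries, all higher, against 2.23% of all genes, and 23 of the 30 had positive fold changes with a median of 0.70. The fit of 6 libraries called 2 higher and 1 lower, against 335 and 231 of its 10218 genes. Among the 3 called in the fit of 18 was the activator Furin, the protease that cuts the TGF-β precursor and many other proteins. It rose from 25, 24.7 and 36.3 CPM to 173, 146 and 183 CPM (log2 fold change 2.54 ± 0.30, adjusted p = 3.81e-07), with values not whole in 14 of 18 libraries. Pmepa1 and Skil are feedback inhibitors that TGF-β signals induce. Pmepa1 rose from 83.8, 71.6 and 74.4 CPM to 107, 160.1 and 175 CPM (log2 fold change 0.95 ± 0.23, adjusted p = 0.0179). Skil stood at 2.29, 9.31 and 4.4 CPM in TfhA and 21.3, 9.28 and 28.1 CPM in Tfh1 (log2 fold change 1.86 ± 0.51, adjusted p = 0.0403), was the called gene whose groups overlapped, and did not pass in the fit of 6 libraries (adjusted p = 0.11). The ligand Tgfb1 was at 0, 4.91 and 3.2 CPM and 4.29, 7.46 and 4.46 CPM (log2 fold change 0.99 ± 2.24, adjusted p = 0.986). None of 4 tested receptors, 3 signal transducers or 7 target genes was called by edgeR's fit of 18 libraries, DESeq2 or limma-voom. An unadjusted p under 0.05 was found for 1 target, against 1416 of all 11735 genes. The feedback inhibitor Smad7 (0.89 ± 1.10, adjusted p = 0.935) and the target Itgae (0.42 ± 2.34, adjusted p = 1) were not called. Leaving out 1 library removed the call for Pmepa1 without any 1 library other than Tfh1 replicate 2 or TfhA replicate 2 (adjusted p = 0.0722 to 0.126) and Skil without any 1 library other than Tfh1 replicate 4 or TfhA replicate 4 (adjusted p = 0.115 to 0.228).

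Genes of the Th1 program that passed the test were all lower in Tfh1. Of 22 tested members, 3 were called lower and none higher, against 0.733% of all genes called lower, the median log2 fold change was -2.08 and 18 were negative. The fit of 6 libraries called 8 lower and 1 higher, against 231 and 335 of its 10218 genes. Cxcr3, a chemokine receptor of Th1 cells, fell from 28.1, 40.2 and 41.6 CPM to 1.65, 3.65 and 3.24 CPM (log2 fold change -3.67 ± 0.83, adjusted p = 0.0086). Nkg7, a protein of cytotoxic granules, fell from 182, 163 and 217 CPM to 13.2, 3.35 and 4.05 CPM (log2 fold change -4.78 ± 0.96, adjusted p = 0.0179). Stat4, which transmits the IL-12 signal, fell from 79.6, 57.2 and 41.1 CPM to 14.2, 10 and 7.84 CPM (log2 fold change -2.47 ± 0.62, adjusted p = 0.0225). All Tfh1 libraries were below all TfhA libraries for these 3. The groups did not overlap for 261 of the 262 called genes and 22.6% of all genes. Tbx21, the gene of T-bet, stood at 62.8, 52.6 and 70.2 CPM and 10.9, 2.89 and 8.51 CPM, missed the threshold in the fit of 18 (log2 fold change -3.06 ± 0.93, adjusted p = 0.104) and passed in that of 6 (adjusted p = 0.000805). Gzmb, the granule protease granzyme B, stood at 105, 127 and 73.3 CPM and 7.43, 1.67 and 0.946 CPM (log2 fold change -4.94 ± 1.33, adjusted p = 0.104, and 0.000115 with the 6 libraries alone). The chemokine Ccl3 stood at 32.1, 29.5 and 30.3 CPM and 0, 3.5 and 2.43 CPM (log2 fold change -3.93 ± 1.22, adjusted p = 0.0976, and 0.00717 with the 6 libraries alone). Ifng was listed at 0 in all 6 libraries, and Il2 stood at 0, 2.05 and 2.7 CPM in TfhA and at 0 in Tfh1 (adjusted p = 0.421). Calls lost on leaving out a library were those of Cxcr3 without Tfh1 replicate 2 (adjusted p = 0.0701), Nkg7 without Tfh1 replicate 4, Tfh1 replicate 5 or TfhA replicate 5 (adjusted p = 0.0758 to 0.116) and Stat4 without any 1 library other than TfhA replicate 5 (adjusted p = 0.0656 to 0.148).

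Some genes that regulatory T cells are known for rose. Of 15 tested members, 4 were called higher, against 1.50% of all genes, and none lower (median 0.62), while Foxp3, the factor that defines these cells, had 0.5 counts over the 3 Tfh1 libraries and 0 over the 3 of TfhA. Ctla4, an inhibitory receptor, rose from 76, 98.5 and 57.3 CPM to 356, 241 and 337 CPM (log2 fold change 2.01 ± 0.27, adjusted p = 4.11e-06). Capg, which caps actin filaments, rose from 114, 76.3 and 107 CPM to 256, 319.9 and 284 CPM (log2 fold change 1.53 ± 0.24, adjusted p = 0.000104). Il2ra, which encodes CD25 of the IL-2 receptor, rose from 311, 296 and 345 CPM to 536, 579.9 and 648 CPM (log2 fold change 0.89 ± 0.18, adjusted p = 0.00265). Il10, given above, was the fourth, and its call was lost as stated there: Il10 without any 1 library other than TfhA replicate 2 (adjusted p = 0.0559 to 0.183). Of 8 tested Th2 genes Il10 was the one called, against 2.23% of all genes. Gata3 stood at 9.45, 16.7 and 17.8 CPM and 0.495, 0 and 3.78 CPM (log2 fold change -3.33 ± 1.52, adjusted p = 0.362), and Il4 was not tested, with 1 count over the 6 libraries. Of 8 tested coinhibitory receptors, Ctla4 was called higher and Cd200 lower, against 1.50% and 0.733% of all genes. Of 19 costimulatory genes of the TNF receptor family none was called by edgeR's fit of 18 libraries. The fit of 6 libraries called 1 higher and 1 lower, against 335 and 231 of its 10218 genes, DESeq2 called 1 and limma-voom 2. An unadjusted p under 0.05 was found for 6, against 1416 of all 11735 genes.

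Receptors for cytokines that share the γ chain went in both directions. Il7r, the IL-7 receptor of naive and memory cells, rose from 44.3, 39.1 and 44.4 CPM to 173, 127 and 127 CPM (log2 fold change 1.74 ± 0.33, adjusted p = 0.00105), and Il2ra rose as given above. Il2rg, the common γ chain, fell from 295, 268 and 375 CPM to 127, 191 and 182 CPM (log2 fold change -0.91 ± 0.22, adjusted p = 0.0131). These were the 3 called of 22 tested genes of the IL-2/STAT5 pathway, against 2.23% of all genes, and the median of the list was 0.09. None of 18 tested genes of the IL-6/STAT3 pathway was called by edgeR's fit of 18 libraries (median -0.25). An unadjusted p under 0.05 was found for 4, against 1416 of all 11735 genes. DESeq2 and limma-voom each called 1, and the fit of 6 libraries called 1 higher, against 335 of its 10218 genes. The feedback inhibitor Socs3 of that pathway stood at 0, 0 and 2.8 CPM in TfhA and 0, 1.37 and 0 CPM in Tfh1 (adjusted p = 0.993). With 1 library left out, the call was lost for Il2rg without Tfh1 replicate 2 or TfhA replicate 5 (adjusted p = 0.149 to 0.168).

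Of the genes of naive and recirculating T cells, Klf2 was among those that fell. Klf2, the transcription factor that controls homing genes, fell from 18, 23 and 13.2 CPM to 0.99, 0 and 3.51 CPM (log2 fold change -3.55 ± 0.70, adjusted p = 0.00219). Ccr7, a lymph node homing receptor, stood at 105, 119.8 and 116 CPM and 186, 119.6 and 139 CPM and was not called (log2 fold change 0.39 ± 0.24, adjusted p = 0.583). Klf2 and Id3 were among the 3 lower calls of 25 tested naive and memory genes, against 0.733% of all genes. Il7r was the 1 higher call, against 1.50% of all genes, and the median was -0.22. Among 30 tested chemokine receptors and migration genes, 2 were called higher (Cxcr6 and Ltb4r1) and 3 lower, Cxcr3 among them, against 1.50% and 0.733% of all genes. Cxcr6, the receptor for CXCL16, rose from 4.99, 0.614 and 0.799 CPM to 43.9, 41.7 and 36.3 CPM (log2 fold change 4.30 ± 0.52, adjusted p = 6.29e-07). When 1 library was left out, the call was lost for Ltb4r1 without Tfh1 replicate 4 or TfhA replicate 4 (adjusted p = 0.0602 to 0.0789) and Cxcr3 without Tfh1 replicate 2 (adjusted p = 0.0701).

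**Figure D3:**
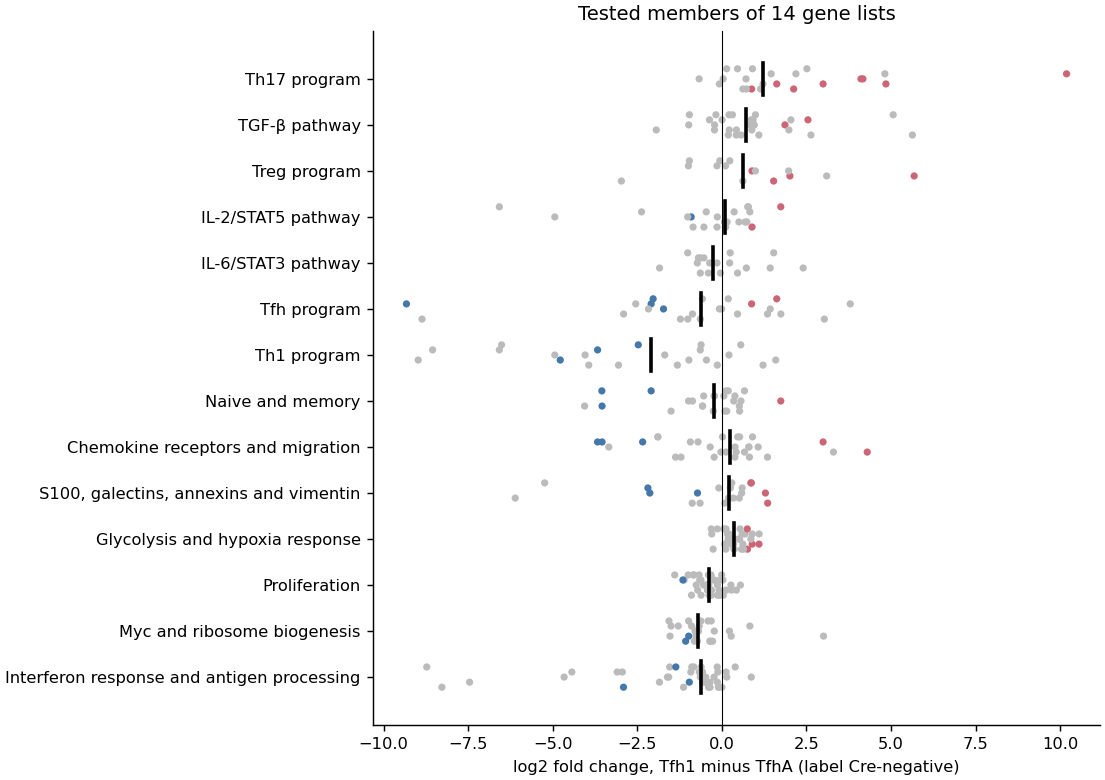
Tested members of 14 gene lists. Each point is 1 gene, the x axis gives its log2 fold change of Tfh1 minus TfhA with the label Cre-negative, and vertical offsets only separate points. Genes called higher are red, genes called lower blue, the rest grey, and black bars are medians, from 1.22 for the Th17 list to -2.08 for the Th1 list.

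Of 22 tested secreted mediators, 4 were called higher (Il17a, Ccl20, Il21 and Il10) and 4 lower (Spp1, Csf1, Il3 and Penk), against 1.50% and 0.733% of all genes. Spp1, or osteopontin, fell from 197, 164 and 114 CPM to 18.6, 1.07 and 19.1 CPM (log2 fold change -3.61 ± 0.72, adjusted p = 0.0114). Csf1, a growth factor of macrophages, fell from 4.86, 7.46 and 16.7 CPM to 0.165, 0 and 0.676 CPM (log2 fold change -4.99 ± 1.20, adjusted p = 0.0139). Penk, the precursor of enkephalins, fell from 90.7, 82.6 and 87.7 CPM to 8.42, 13.1 and 12.6 CPM (log2 fold change -2.93 ± 0.69, adjusted p = 0.0238). Each of the 3 was lower in every Tfh1 library than in any TfhA library. Such groups without overlap were found for 261 of the 262 called genes and 22.6% of all genes. Leaving out 1 library removed the call for Csf1 without Tfh1 replicate 2, Tfh1 replicate 4 or TfhA replicate 5 (adjusted p = 0.0891 to 0.113), Penk without any 1 of the 6 libraries (adjusted p = 0.0789 to 0.162), Il10 without any 1 library other than TfhA replicate 2 (adjusted p = 0.0559 to 0.183) and Il3 without any 1 library other than TfhA replicate 4 or TfhA replicate 5 (adjusted p = 0.0665 to 0.0806).

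The S100, galectin, annexin and vimentin list moved in both directions. Of 20 tested members, 4 rose and 3 fell, against 1.50% and 0.733% of all genes, and the median was 0.22. S100a4 and S100a6 code for small calcium-binding proteins and lie close to each other on chromosome 3 (chr3:90603770-90606045 and chr3:90612894-90614414). S100a6 fell from 1450.0, 1293 and 1397 CPM to 292, 314 and 304 CPM (log2 fold change -2.19 ± 0.20, adjusted p = 4.4e-09) and S100a4 from 569, 519 and 649.8 CPM to 173, 102 and 123 CPM (log2 fold change -2.13 ± 0.25, adjusted p = 3.36e-07). The libraries of S100a6 lay close together within each group, while those of S100a4 in Tfh1 ran from 102 to 173 CPM. Neither gene overlapped between the groups, which the rule for the smallest adjusted p required. Ly6a, or Sca-1, an interferon-inducible surface protein, fell from 1471, 1105 and 1102 CPM to 645, 888 and 699 CPM (log2 fold change -0.72 ± 0.17, adjusted p = 0.0106). Lgals1, the sugar-binding galectin-1, rose from 1942, 1639.8 and 1473 CPM to 2820.0, 3414 and 3017 CPM (log2 fold change 0.87 ± 0.18, adjusted p = 0.00277), and Lgals3, galectin-3, from 120.1, 67.9 and 64.7 CPM to 196, 252 and 198 CPM (log2 fold change 1.35 ± 0.29, adjusted p = 0.00542). Crip1, a small LIM-domain protein, rose from 267, 166 and 175 CPM to 404, 594 and 485 CPM (log2 fold change 1.29 ± 0.25, adjusted p = 0.00153). Vim, the intermediate filament vimentin, rose from 739, 1066 and 765 CPM to 1390.3, 1403 and 1863 CPM (log2 fold change 0.86 ± 0.22, adjusted p = 0.0211). Calls lost on leaving out a library were those of Lgals3 without TfhA replicate 5 (adjusted p = 0.0589), Vim without Tfh1 replicate 5, TfhA replicate 2 or TfhA replicate 5 (adjusted p = 0.136 to 0.148) and Ly6a without Tfh1 replicate 2, Tfh1 replicate 5 or TfhA replicate 2 (adjusted p = 0.0612 to 0.133).

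Of 32 tested genes of T cell receptor activation 2 were called higher (Il2ra and Irf4) and 2 lower, against 1.50% and 0.733% of all genes, with a median of 0.07. Dusp2, a phosphatase of MAP kinases, fell from 186, 144 and 159 CPM to 74.3, 44 and 83 CPM (log2 fold change -1.28 ± 0.31, adjusted p = 0.0153), and Nfkbia, the inhibitor of NF-κB, from 437, 436 and 526 CPM to 248, 328 and 264 CPM (log2 fold change -0.74 ± 0.19, adjusted p = 0.0275). Of the CD4 T cell markers, Cd2, an adhesion molecule of T cells, was the 1 called of 14, against 2.23% of all genes. It rose from 396, 364 and 389 CPM to 887, 1031 and 876 CPM (log2 fold change 1.28 ± 0.18, adjusted p = 1.9e-05). With 1 library left out, the call was lost for Dusp2 without Tfh1 replicate 4, TfhA replicate 2 or TfhA replicate 5 (adjusted p = 0.0589 to 0.162), Nfkbia without any 1 library other than Tfh1 replicate 4 (adjusted p = 0.0529 to 0.222) and Irf4 without any 1 library other than Tfh1 replicate 2 (adjusted p = 0.0506 to 0.194).

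In metabolism the glycolysis and hypoxia list had 4 of 34 tested genes called, all higher, against 1.50% of all genes called higher, with a median of 0.36 and 30 positive values. They were the glycolytic aldolases Aldoa (0.76 ± 0.18, adjusted p = 0.0123) and Aldoc (1.10 ± 0.27, adjusted p = 0.0201), the oxygen-sensing prolyl hydroxylase Egln3 (0.90 ± 0.23, adjusted p = 0.0218) and the mitophagy receptor Bnip3l (0.75 ± 0.20, adjusted p = 0.0281). Aldoc, for example, stood at 53.7, 49.5 and 39 CPM in TfhA and 91.3, 127 and 85.9 CPM in Tfh1. No member was called lower. When 1 library was left out, the call was lost for Aldoa without Tfh1 replicate 4 or TfhA replicate 4 (adjusted p = 0.0586 to 0.17), Aldoc without Tfh1 replicate 4 or TfhA replicate 5 (adjusted p = 0.151 to 0.19), Egln3 without any 1 library other than Tfh1 replicate 5 or TfhA replicate 4 (adjusted p = 0.0602 to 0.141) and Bnip3l without Tfh1 replicate 4, TfhA replicate 2 or TfhA replicate 5 (adjusted p = 0.138 to 0.277), and Bnip3l was also lost without the filter on low counts (adjusted p = 0.0689).

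Other metabolic lists held calls in both directions, 2 of 36, 2 of 23 and 3 of 34 tested genes, against 2.23% of all genes. Of 36 tested genes of cholesterol and fatty acid synthesis, the synthase Hmgcs1 fell (-1.25 ± 0.25, adjusted p = 0.00236) and the desaturase Sc5d rose (1.25 ± 0.28, adjusted p = 0.0086). Of 23 genes of amino acid supply and the ATF4 response, Ddit4, an inhibitor of mTORC1, rose (0.93 ± 0.21, adjusted p = 0.00736) and the glutamine transporter Slc1a5 fell (-1.04 ± 0.27, adjusted p = 0.0277). Of 34 respiratory chain genes, the complex III subunits Uqcrh (0.86 ± 0.18, adjusted p = 0.00325) and Uqcrq (0.72 ± 0.19, adjusted p = 0.0338) rose and Ndufa4, an electron transport chain subunit, fell (-1.27 ± 0.35, adjusted p = 0.0417). The medians of these lists were -0.06, -0.14 and 0.22. Leaving out 1 library removed the call for Sc5d without TfhA replicate 2 or TfhA replicate 5 (adjusted p = 0.0585 to 0.0865), Ddit4 without Tfh1 replicate 4 (adjusted p = 0.0891), Slc1a5 without any 1 of the 6 libraries (adjusted p = 0.0606 to 0.205), Uqcrq without any 1 of the 6 libraries (adjusted p = 0.0744 to 0.194) and Ndufa4 without any 1 of the 6 libraries (adjusted p = 0.0664 to 0.251).

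Of 41 tested proliferation genes 1 was called, a share near the 2.23% of all genes. It was the ribonucleotide reductase subunit Rrm1, which fell from 96.5, 128 and 142 CPM to 55.8, 60.1 and 49.3 CPM (log2 fold change -1.15 ± 0.28, adjusted p = 0.0152), while 34 had negative values and the median was -0.38. Of 26 tested genes of Myc and ribosome biogenesis, 2 were called, both lower, against 0.733% of all genes: Max, the partner of Myc (-1.07 ± 0.28, adjusted p = 0.0301), and Dkc1, an enzyme that modifies ribosomal RNA (-0.98 ± 0.27, adjusted p = 0.0387). The median of that list was -0.71 and 22 values were negative. The ribosomal proteins, a list made by symbol after the values were seen, went the other way, with 17 of 83 tested members called higher, against 1.50% of all genes, and none lower and a median of 0.53. Examples are Rps20 (0.85 ± 0.16, adjusted p = 0.0012) and Rpl23a (1.02 ± 0.19, adjusted p = 0.00104), whose values were not whole in 17 and 18 of 18 libraries, so reads may be shared with copies of these genes. The share of counts in the 2 most abundant identifiers, 100861531 and 19791, given above, was also higher in Tfh1 on average. With these 2 identifiers removed from the counts, 18 of 82 tested ribosomal proteins were called higher and none lower, with a median of 0.54, and Rps20 (0.87, adjusted p = 0.00104) and Rpl23a (1.04, adjusted p = 0.000882) were called as before. Removing 2 identifiers hardly changes the scaling of other genes, so that refit cannot decide whether the share bears on the ribosomal proteins. This was not tested. With the label Cre-positive the median of the ribosomal proteins was 0.59, where that share was 27.42% to 46.17% in TfhA and 37.56% to 38.73% in Tfh1. Calls lost on leaving out a library were those of Rrm1 without any 1 library other than TfhA replicate 2 (adjusted p = 0.0544 to 0.142), Max without any 1 of the 6 libraries (adjusted p = 0.0692 to 0.194) and Dkc1 without any 1 library other than TfhA replicate 2 (adjusted p = 0.104 to 0.305).

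Of 40 tested genes of the interferon response and antigen processing, 3 were called lower and none higher, against 0.733% of all genes called lower, with 35 negative values and a median of -0.63. Ifi27, an interferon-induced gene, fell from 109.7, 115 and 111 CPM to 22.9, 18.3 and 3.65 CPM (log2 fold change -2.91 ± 0.43, adjusted p = 4.21e-05). Psmb10, an immunoproteasome subunit, fell from 91.9, 68.4 and 76.4 CPM to 32.3, 25 and 34.9 CPM (log2 fold change -1.36 ± 0.34, adjusted p = 0.0211), and Tapbp, or tapasin, which loads peptides on MHC class I, from 183, 147 and 178 CPM to 73.8, 128 and 58.6 CPM (log2 fold change -0.96 ± 0.25, adjusted p = 0.0245). The metallothioneins Mt1 and Mt2, which bind zinc and copper, both rose. Mt1 went from 526, 286 and 323 CPM to 989.7, 1009.9 and 814 CPM (log2 fold change 1.31 ± 0.20, adjusted p = 4.02e-05) and Mt2 from 236, 114 and 121 CPM to 659, 497 and 446 CPM (log2 fold change 1.77 ± 0.35, adjusted p = 0.00614). These were the 2 called of 11 tested metallothioneins and zinc transporters, against 1.50% of all genes called higher. None of 26 tested genes of p53 and apoptosis was called by edgeR's fit of 18 libraries, DESeq2 or limma-voom, and their median was -0.48. The fit of 6 libraries called 2 of them lower, against 231 of its 10218 genes. Of the 26, 6 had an unadjusted p under 0.05, against 1416 of all 11735 genes. Calls lost with a library left out were those of Psmb10 without any 1 library other than Tfh1 replicate 5 or TfhA replicate 4 (adjusted p = 0.0732 to 0.149), Tapbp without any 1 library other than Tfh1 replicate 4 or TfhA replicate 4 (adjusted p = 0.0968 to 0.205) and Mt2 without TfhA replicate 5 (adjusted p = 0.0588).

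Markers of other cells were low. Of 16 B cell markers 5 were at 0 in all 6 libraries, Ms4a1, Pax5, Blk, Cd22 and Fcrla, and 4 were tested. Their summed level was 74.1 to 96.5 CPM in TfhA and 140.3 to 174 CPM in Tfh1. The MHC class II gene H2-Ab1 made up most of it and was the 1 called of the 4 tested, against 2.23% of all genes. It rose from 62.8, 61.5 and 42.3 CPM to 118, 147 and 140.1 CPM (log2 fold change 1.28 ± 0.32, adjusted p = 0.0206). The call was lost for H2-Ab1 without Tfh1 replicate 4, Tfh1 replicate 5 or TfhA replicate 5 (adjusted p = 0.0637 to 0.169). The 12 NK and innate lymphoid markers summed to 27.1 to 64.9 CPM in TfhA and 25.1 to 64.2 CPM in Tfh1, with Ncr1, Klrb1c, Klra1 and Klra8 at 0. The 17 myeloid and dendritic markers reached 3.64 CPM in TfhA and 11.4 CPM in Tfh1 at most, with 11 of them at 0, Lyz2, Itgam and Adgre1 included. The 2 CD8 T cell markers reached 5.0 CPM and Cd8a was at 0, the 3 of 9 γδ T cell markers matched to the files reached 9.24 CPM, with Sox13 and Trdv4 at 0, and the 7 of 8 erythroid markers matched 9.59 CPM. None of these last 5 lists held a call in edgeR's fit of 18 libraries or in DESeq2, and limma-voom called 1 NK and innate lymphoid marker. The fit of 6 libraries called 1 NK and innate lymphoid marker higher and 1 lower, against 335 and 231 of its 10218 genes. The median log2 fold change of the 7 tested NK and innate lymphoid markers was -2.67. An unadjusted p under 0.05 was found for 4 NK and innate lymphoid and 2 myeloid and dendritic markers, against 1416 of all 11735 genes.

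The same contrast in the libraries labelled Cre-positive called 302 genes (2.57%), 185 higher and 117 lower, and shares no library with the one described here. It called 170 without TfhA replicate 3, 185 without Tfh1 replicate 6 and 199 without TfhA replicate 6, all of that label. Of the 176 genes called higher with the label Cre-negative, 79 were also called higher with the label Cre-positive, which is 44.9% of the first list and 42.7% of the second. Of the 86 called lower, 29 were called lower in both, 33.7% and 24.8%. Il17a, Ctla4 and Irf4 were called in both, with log2 fold changes of 3.88, 1.90 and 0.84 for the label Cre-positive beside 4.17, 2.01 and 0.88. The test of the difference itself, Cre-negative minus Cre-positive, called 28 genes (0.239%), 16 with a higher and 12 with a lower value for the label Cre-negative, and 18 without the Cre-negative TfhA replicate 5 or Tfh1 replicate 5. The genes given next are those with the smallest adjusted p in that test and the panel genes it called.

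Il24 had the smallest p. With the label Cre-negative it is given above, and with the label Cre-positive it stood at 47.7, 22.7 and 46.7 CPM in TfhA and at 0, 1.11 and 0 CPM in Tfh1 (-6.73 ± 0.81, adjusted p = 2.38e-06), so that the difference was 8.19 ± 1.0, adjusted p = 3.78e-05. AA467197 and Sema4f, which rose with the label Cre-negative, stood at 101, 49 and 96.7 and 22.1, 14.9 and 8.5 CPM in TfhA and 83.5, 76.1 and 83.5 and 14.2, 28.8 and 31.4 CPM in Tfh1 with the label Cre-positive (differences 2.41 ± 0.34, adjusted p = 0.000177, and 3.28 ± 0.51, adjusted p = 0.000795). Neither was called there. Il2ra stood at 325, 283 and 344 CPM and 216, 287 and 246 CPM with the label Cre-positive (difference 1.24 ± 0.25, adjusted p = 0.0139). Its difference was not called in 4 of the 12 fits that left out 1 library, namely without the Cre-negative Tfh1 replicate 5 or TfhA replicate 4 or the Cre-positive Tfh1 replicate 1 or TfhA replicate 6 (adjusted p = 0.0555 to 0.08).

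In 3 genes the calls had opposite directions under the labels. Lgals3 stood at 217, 149 and 89.1 CPM in TfhA and 81.4, 57 and 60.2 CPM in Tfh1 with the label Cre-positive (-1.19 ± 0.29, adjusted p = 0.0157), and the difference was 2.55 ± 0.41, adjusted p = 0.000935. Vim stood at 711, 846 and 1196 CPM and 392, 577 and 414 CPM there (-0.99 ± 0.22, adjusted p = 0.00527), and the difference was 1.85 ± 0.31, adjusted p = 0.00106. Lsp1, an actin-binding protein of leukocytes, is the third. It fell with the label Cre-negative from 28.9, 44.8 and 55.5 CPM to 23.8, 12.9 and 19.3 CPM (log2 fold change -1.21 ± 0.33, adjusted p = 0.0366) and rose with the label Cre-positive from 37.4, 53.8 and 56.9 CPM to 226, 138 and 100.3 CPM (1.65 ± 0.32, adjusted p = 0.00173), and the difference was -2.85 ± 0.46, adjusted p = 0.000905. The Cre-negative call of Lsp1 was not found in the fit of 6 libraries (adjusted p = 0.0767). With 1 library left out, the Cre-negative call was lost for Lsp1 without any 1 library other than Tfh1 replicate 2 or TfhA replicate 2 (adjusted p = 0.0966 to 0.317), Lgals3 without TfhA replicate 5 (adjusted p = 0.0589) and Vim without Tfh1 replicate 5, TfhA replicate 2 or TfhA replicate 5 (adjusted p = 0.136 to 0.148).

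S100a6 and S100a4 fell under both labels and by less with the label Cre-negative. With the label Cre-positive S100a6 went from 1265, 1317 and 1019 CPM to 85, 66.1 and 91.5 CPM (-3.89 ± 0.22, adjusted p = 2.68e-15, difference 1.71 ± 0.27, adjusted p = 0.000905) and S100a4 from 360.2, 333 and 250.1 CPM to 17.8, 10.6 and 24.1 CPM (-4.17 ± 0.27, adjusted p = 2.31e-13, difference 2.04 ± 0.34, adjusted p = 0.00129). Klf2 fell with the label Cre-negative and stood at 8.22, 27 and 17.1 CPM and 51.5, 38.4 and 60.1 CPM with the label Cre-positive (1.51 ± 0.62, adjusted p = 0.24, difference -5.06 ± 0.94, adjusted p = 0.0049). Pou2af1, at 0 in Tfh1 with the label Cre-negative, stood at 0.183, 12.1 and 9.94 CPM and 50.8, 33.7 and 37.9 CPM with the label Cre-positive (adjusted p of the difference 0.0159). The call of that difference was lost in 8 of the 12 fits that left out 1 library of either label (adjusted p = 0.0659 to 0.0985). With 1 library left out, the Cre-negative call was lost for Pou2af1 without Tfh1 replicate 4 or TfhA replicate 5 (adjusted p = 0.0514 to 0.0565).

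**Figure D4:**
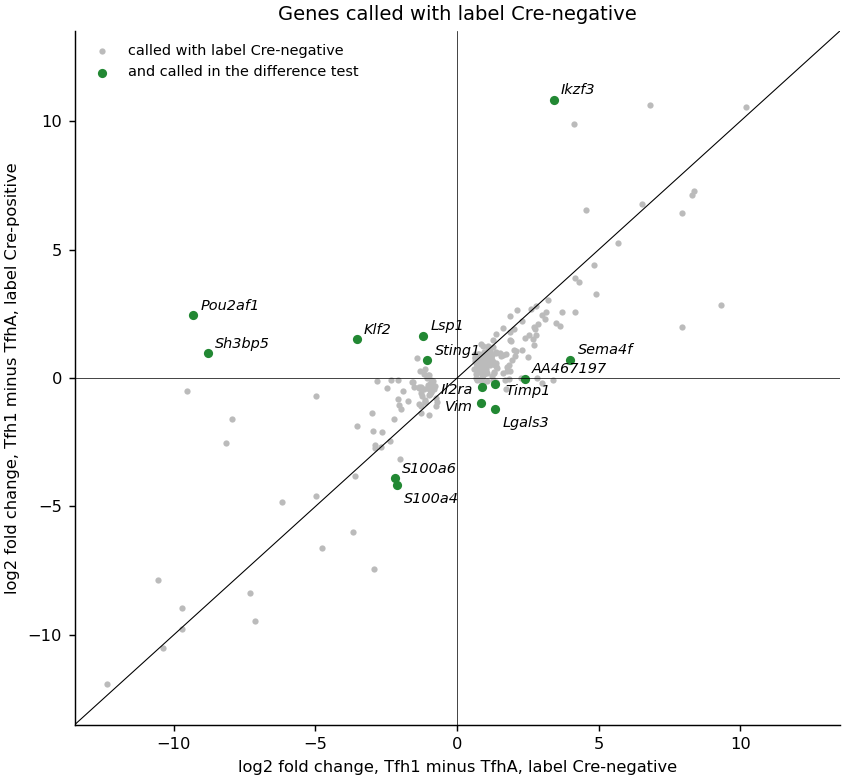
Fold changes of the 262 genes called with the label Cre-negative, on the x axis, against those with the label Cre-positive, on the y axis, both as log2 of Tfh1 minus TfhA. The diagonal marks equal values, and genes called in the test of the difference between labels are green and named. Klf2 and Pou2af1 lie above 0 on the y axis and below 0 on the x axis, and Lgals3 and Vim the other way round.

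**Figure D5:**
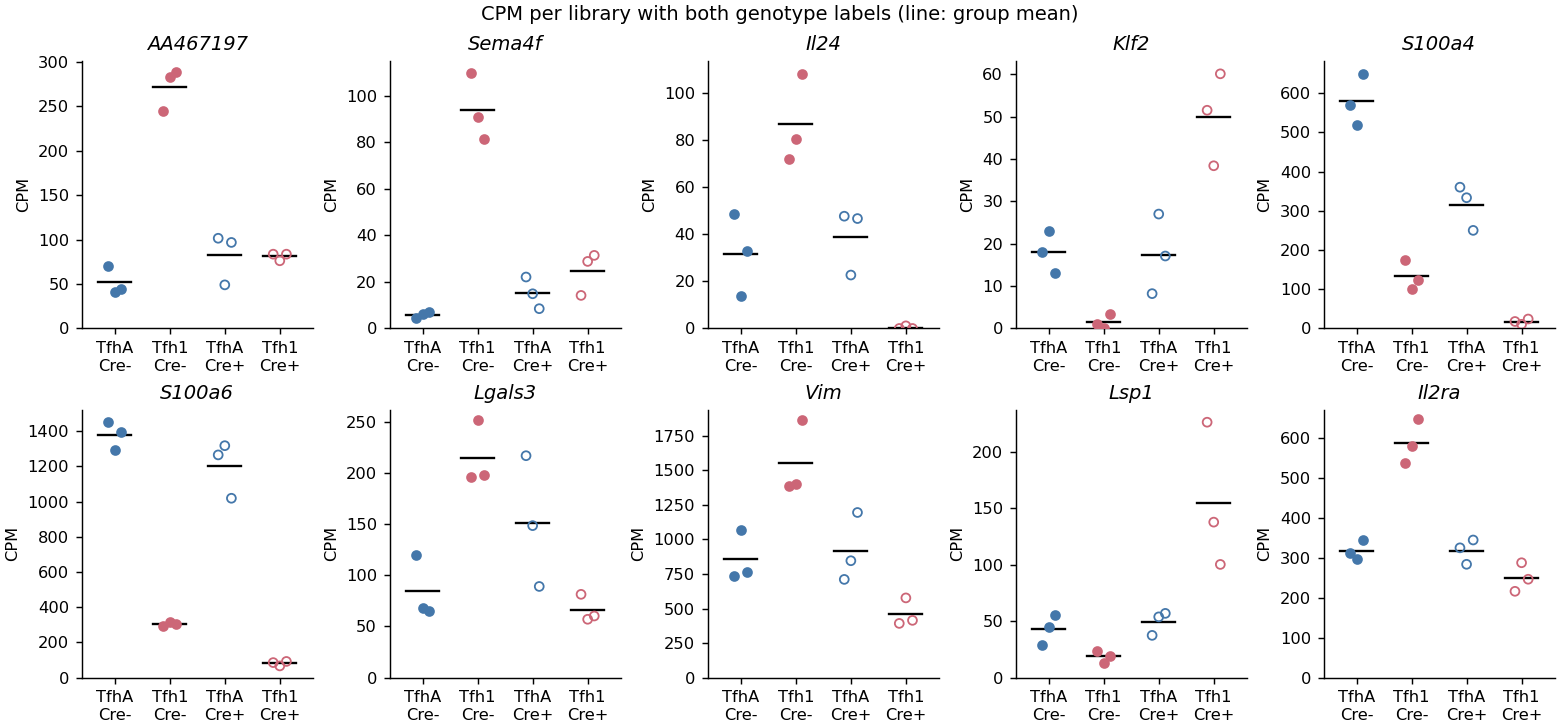
Levels in CPM, on linear axes from 0, of 10 genes called in the test of the difference between labels, in the 12 libraries of TfhA and Tfh1. Filled points carry the label Cre-negative (Cre-), open points the label Cre-positive (Cre+), and lines are means of 3 libraries. Il24 is at 1.11 CPM or less in Tfh1 with the label Cre-positive and at 72 CPM or more with the label Cre-negative.

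The Tfh5 libraries labelled Cre-negative give another level for these genes, without a test, since their contrast would share the TfhA libraries. Values are means ± SD in CPM (n = 3). Il17a averaged 6.2 ± 1.3 in TfhA, 111 ± 36.3 in Tfh1 and 165 ± 38.6 in Tfh5, and the last 2 lie within their spread. Pdpn averaged 0.568 ± 0.813, 156 ± 14.8 and 303 ± 18.1, and Cxcr6 2.14 ± 2.48, 40.7 ± 3.88 and 95.9 ± 3.59, so that both were highest in Tfh5. AA467197 averaged 51.9 ± 16.3, 272 ± 23.8 and 938 ± 174 and Pmepa1 76.6 ± 6.41, 148 ± 35.7 and 302 ± 18.2, in the same order. Other genes had their highest or lowest mean in Tfh1. Ctla4 averaged 77.3 ± 20.6, 312 ± 61.6 and 176 ± 12.1, and S100a4 579.5 ± 65.8, 132 ± 36.9 and 373 ± 58.4. Tagap averaged 154 ± 30, 23.9 ± 8.65 and 126 ± 35.9, and the TfhA and Tfh5 values of Tagap lie within their spread. Over 3 libraries of Tfh5, Dgkk had 0.25 counts and Serpinb9b 0.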

How the data were processed

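RNA of sorted, activated CD4 T cells was read as 3′ mRNA libraries. The authors deposited 1 table of expected counts per library, not normalized, made with STAR 2.7.2b and featureCounts 1.6.4 on mm10, per the submitters' processing notes. In the 18 libraries, 11.7% to 18.1% of values were not whole, so reads may be shared between copies of a gene, and the planned tests of whole counts were run on rounded values. Identifiers were named through RefSeq's table of GRCm38.p6 (25275 of 27179). edgeR 4.0.16 in R 4.3.3 fitted 1 mean per group over 18 libraries (TMM, filterByExpr, robust quasi-likelihood). Benjamini-Hochberg adjustment covered the 11735 genes that passed filterByExpr. CPM are rounded counts over the TMM-scaled library size, and an SE is |log2 fold change| over √F. Totals were 6424874 to 9236153 in the 18 libraries and 6424874 to 7401070 in the 6 compared, and floors and intervals cover counting error only. Scripts were tested on simulated data with less spread than these and with larger changes than many called here. The error rate at the spread of these data was not tested.

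Named genes are a panel of 36, the 12 largest rises and falls and the 6 smallest adjusted p in each direction among called genes of at least 10 CPM without overlap, up to 5 members of each of 31 lists, and the 8 smallest adjusted p in the difference between labels. The members and lists were chosen with earlier results of these data known. List medians printed here were the same with genes at 0 counts set to their bound. Promoter windows are RefSeq's, and no set test was run. Some members of the lists and panel are not reported here.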

Additional observations from a re-analysis of the deposited data

Results flagged for a closer look

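The effect of Tfh1 minus TfhA differed between the genotype labels for 11 named genes in edgeR's test of the difference itself, Cre-negative minus Cre-positive, which took its adjusted p-values over all 11735 genes. Values are log2 differences ± SE, and per-library levels are in the report. The Cre-negative value was the higher one for Il24 (8.19 ± 1.0, adjusted p = 3.78e-05), AA467197 (2.41 ± 0.34, adjusted p = 0.000177), Sema4f (3.28 ± 0.51, adjusted p = 0.000795), Lgals3 (2.55 ± 0.41, adjusted p = 0.000935), Vim (1.85 ± 0.31, adjusted p = 0.00106) and Il2ra (1.24 ± 0.25, adjusted p = 0.0139). It was also the higher one for S100a6 (1.71 ± 0.27, adjusted p = 0.000905) and S100a4 (2.04 ± 0.34, adjusted p = 0.00129), which fell under both labels. The Cre-negative value was the lower one for Lsp1 (-2.85 ± 0.46, adjusted p = 0.000905), Klf2 (-5.06 ± 0.94, adjusted p = 0.0049) and Pou2af1 (-11.76 ± 1.97, adjusted p = 0.0159). Tfh1 held 0 counts of Pou2af1 with the label Cre-negative, so its fitted difference depends on the prior count of the fit and is no measure of size. With each of the 12 TfhA and Tfh1 libraries left out in turn, 9 of the 11 were called every time, Il2ra was lost in 4 fits (adjusted p = 0.0555 to 0.08) and Pou2af1 in 8 (adjusted p = 0.0659 to 0.0985). Groups of 3 libraries are too small for a test of single outlying libraries.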

How the results depend on the processing

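The number of genes called, 262 (176 higher and 86 lower), was within 1.5 times under DESeq2's size factors (263), no filter (381), a filter of 10 counts in 3 libraries (263), removal of the 2 most abundant identifiers (269) and rounding down (263), although the lower calls without a filter were 140. DESeq2 called 423 (274 and 149), limma-voom 433 (242 and 191) and the fit of the 6 libraries alone 566 (335 and 231), and the cause was not tested. Leaving out 1 library, with fewer samples in the fit, gave 129 to 202 calls, 92 to 153 of them higher and 37 to 55 lower. The count was 189 without TfhA replicate 2, 129 without TfhA replicate 5, 202 without TfhA replicate 4, 166 without Tfh1 replicate 2, 201 without Tfh1 replicate 5 and 147 without Tfh1 replicate 4. For the label Cre-positive, DESeq2 called 576 and limma-voom 558 against 302, and fits that left out 1 of the 12 TfhA and Tfh1 libraries of either label called 170 to 292. For the difference between labels, no filter gave 61, DESeq2 63 and those 12 fits 18 to 27 against 28. Leaving out Cre-positive libraries was chosen after seeing the data.

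Of the 85 named genes called, 43 kept their call in all 6 fits that left out 1 Cre-negative library and 42 under every alternative that tested them. None changed sign. Apart from libraries left out and the replicate block, calls were lost under limma-voom for Ahr (adjusted p = 0.106), Cxcr3 (0.0514), Lsp1 (0.213) and Skil (0.282), without a filter for Bnip3l (0.0689), Slc1a5 (0.0506) and Uqcrq (0.0718), and in the fit of 6 libraries for Lsp1 (0.0767) and Skil (0.11). Genes that the fit of 18 libraries did not call were called by others. Tbx21 passed under DESeq2 (0.0189), limma-voom (0.0186) and no filter (0.000107), and Il17f under DESeq2 (0.0022) and limma-voom (0.0116). Btla (0.0031) and Ccl3 (0.0189) passed under DESeq2, Gzmb (0.0131), Il24 (0.007) and Gata3 (0.0444) under limma-voom, and Stat3 (0.0407) under DESeq2.

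Signs changed for 6 named genes that were not called. Il23r was -0.066 under limma-voom, and -0.35 to 0.36 with 1 library left out. Pdcd1 was 0.003 under DESeq2 and under its size factors, 0.009 under limma-voom, 0.005 without the 2 identifiers, 0.007 in the fit of 6, and -0.20 to 0.47 with 1 library left out. With 1 library left out Batf ran from -0.17 to 0.025, Itgae from -0.39 to 5.85, Maf from -2.446 to 5.474 and Socs3 from -5.84 to 4.771.

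Whether the replicate numbers pair the samples is not given. Deviations from the group means of same-numbered TfhA and Tfh1 libraries correlated at 0.008, -0.017 and 0.026 for numbers 2, 4 and 5. These values show no shared deviation, but with 3 libraries per group they cannot decide whether the samples are paired. With a replicate block the fit of 18 libraries called 282 genes (192 and 90) and the fit of 6 called 455 (287 and 168). With the block, Il23r was -0.06 in 18 libraries and -0.004 in 6, and Pdcd1 0.024 and 0.002. Calls lost with the block were, in 18 libraries, Dcn (0.0864), Dkc1 (0.059), Pou2af1 (0.0509), Prr5l (0.0606), Skil (0.0637) and Tmem176a (0.0824), and, in 6, Ahr (0.0504), Csf1 (0.0756), Klf2 (0.0666), Lsp1 (0.134) and Skil (0.191). At these depths a group with 0 counts allows up to 3.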
